A study of Mus musculus with 31 samples.

Results

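Cxcl1, Cxcl2, Cxcl3 and Cxcl5, ligands that draw neutrophils out of the blood, and Cxcr2, the receptor through which they act, were followed in the masseter muscle (MM) of 31 mice. These 5 genes of the 22609 listed in the count tables were chosen by name, as the ligands and the receptor of 1 chemokine axis. All mice were adult male C57BL/6J, and 1 RNA-seq library was made from the MM of each. In the CFA experiment, 3 mice were collected at 1d and 3 at 5d after an injection of complete Freund's adjuvant (CFA, killed mycobacteria in oil, an inflammatory stimulus), and 3 mice had vehicle (PBS). In the collagenase experiment, type 2 collagenase (Col), an enzyme that digests extracellular matrix, was given at 0.2U to 4 mice of a group labelled 1C and 4 of a group labelled RPC, and at 10U to 4, 3 and 4 mice labelled 2d, 6d and 12d. Another 3 mice, titled as controls, were taken as their vehicle group. The labels do not say on which day the 1C and RPC groups or the vehicle mice were collected, and the study's text gives 1d and 14d for the 10U groups labelled 2d and 12d. The days of the labels are used here.

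In mice, these ligands are secreted within hours by resident macrophages, fibroblasts and endothelium when NF-kB is activated by interleukin 1, TNF or Toll-like receptors. Their mRNAs are short-lived. Cxcr2 sits mainly on mature neutrophils. A whole-tissue library cannot tell fewer cells of a type from less RNA per cell.

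The libraries held 14843778 to 29076671 reads on genes (median 20834472), and CPM below are counts scaled to the size of the library, corrected by the TMM method. A floor of 3 counts is worth 0.103 to 0.202 CPM, so values under it rest on single reads. The 6 skeletal muscle markers were detected in every library and summed to 24900 to 169000 CPM. Markers of neighbouring tissues varied between mice. Salivary gland markers summed to 10.5 to 131000 CPM, bone markers to 1.27 to 265 CPM and markers of immature marrow neutrophils to 1.75 to 928 CPM. The latter were at 566 and 928 CPM in the third mouse of the CFA and Col vehicle groups and at 255 to 709 CPM in group 1C. Summed markers of endothelium were at 452 to 1100 CPM, of fibroblasts at 657 to 7500, of squamous epithelium at 2.14 to 328, of erythroid cells at 1.02 to 135 and of platelets at 4.93 to 167 CPM. Reads that overlapped more than 1 gene were 0.559 to 0.703% in the 10U groups and 0.147 to 0.198% in their vehicle group, so treatment and whatever set this share apart cannot be told apart in those comparisons.

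The 4 ligand genes lie on the same strand of chromosome 5 within 146611 bp (build mm9). In order these are Cxcl5 at 91188325 to 91190651, Cxcl3 at 91215129 to 91217112, Cxcl1 at 91320267 to 91322141 and Cxcl2 at 91332897 to 91334935, with Ppbp, Pf4 and Cxcl15 between them. Cxcl5 has 5 exons in its longest transcript and the other ligands have 4 each. Cxcr2 lies on chromosome 1 at 74200563 to 74207812 with 3 exons. No other gene lies on the opposite strand within 5000 bp of any of the 5. Cxcl2 and Cxcl3 are close relatives: 3.33% of the 50-base windows of Cxcl2 transcripts occur in Cxcl3 and 6.35% of those of Cxcl3 in Cxcl2, and 2.64% of those of Cxcr2 in other genes. Reads from these stretches cannot be assigned to 1 gene, and Cxcl1 and Cxcl5 had none.

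The starts of 3 of these ligand genes are shown as a description, and the part of these sequences in the levels below was not tested. RefSeq (GRCm38.p6) held a promoter for 4 of the 5 members, and the 250 bases before the start are printed 5′ to 3′ for Cxcl1, Cxcl2 and Cxcl3. Capitals mark the runs of 8 or more letters that all 3 windows have in common on the strand of the gene: GGGAATTTCCC, the form of an NF-kB site, and ATAAAAGG, the form of a TATA box. No entry was matched for Cxcl5.
Cxcl1, chr5:90890995-90891244, + strand: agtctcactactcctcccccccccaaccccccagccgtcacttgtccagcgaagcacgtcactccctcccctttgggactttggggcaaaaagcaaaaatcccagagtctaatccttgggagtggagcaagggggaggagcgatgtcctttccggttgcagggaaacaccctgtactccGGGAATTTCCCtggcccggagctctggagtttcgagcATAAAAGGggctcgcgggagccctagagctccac
Cxcl2, chr5:90903649-90903898, + strand: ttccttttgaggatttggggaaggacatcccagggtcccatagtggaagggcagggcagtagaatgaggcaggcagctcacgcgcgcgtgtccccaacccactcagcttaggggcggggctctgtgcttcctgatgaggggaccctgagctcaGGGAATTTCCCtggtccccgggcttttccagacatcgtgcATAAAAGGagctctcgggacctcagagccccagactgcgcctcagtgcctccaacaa
Cxcl3, chr5:90785851-90786100, + strand: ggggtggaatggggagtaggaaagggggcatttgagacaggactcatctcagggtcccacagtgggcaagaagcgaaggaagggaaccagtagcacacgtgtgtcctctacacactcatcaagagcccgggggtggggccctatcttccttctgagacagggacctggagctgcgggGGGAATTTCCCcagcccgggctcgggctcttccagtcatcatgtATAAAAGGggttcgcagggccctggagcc

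The first run, of 11 letters, starts 71, 97 and 73 bases before the start of Cxcl1, Cxcl2 and Cxcl3, and the second, of 8 letters, starts 34, 57 and 29 bases before it, with no overlap between them. Both were found by comparing these windows with each other, so their presence in all 3 is how they were chosen. Of 32851 RefSeq promoter windows of 250 bases, searched on both strands, 0.0426% held the first run and 1.54% the second, and 3 windows, those of the same ligands, held both. The Cxcr2 window held neither. A match of letters is a description and no evidence of binding.

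In the vehicle groups, Cxcl1 was the only ligand found in every mouse. Its levels were 0.606, 0.365 and 0.405 CPM in the CFA experiment and 0.131, 0.998 and 1.25 CPM in the Col experiment. Cxcl2, Cxcl3 and Cxcl5 were at 0 or a few reads: at most 2 counts for Cxcl2, 1 for Cxcl3 and 6 for Cxcl5, which was at 0, 0.0456 and 0.221 CPM in the CFA experiment and 0.0872, 0 and 0.0895 CPM in the Col experiment. Cxcr2 was near 0 in most vehicle mice but not in all, with 0.0404, 0.0912 and 6.37 CPM in the CFA experiment and 0.610, 0.266 and 11.9 CPM in the Col experiment. The third vehicle mouse of each experiment was therefore far above the others in Cxcr2, while its ligands other than Cxcl1 stayed at 6 counts or fewer.

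**Figure D1:**
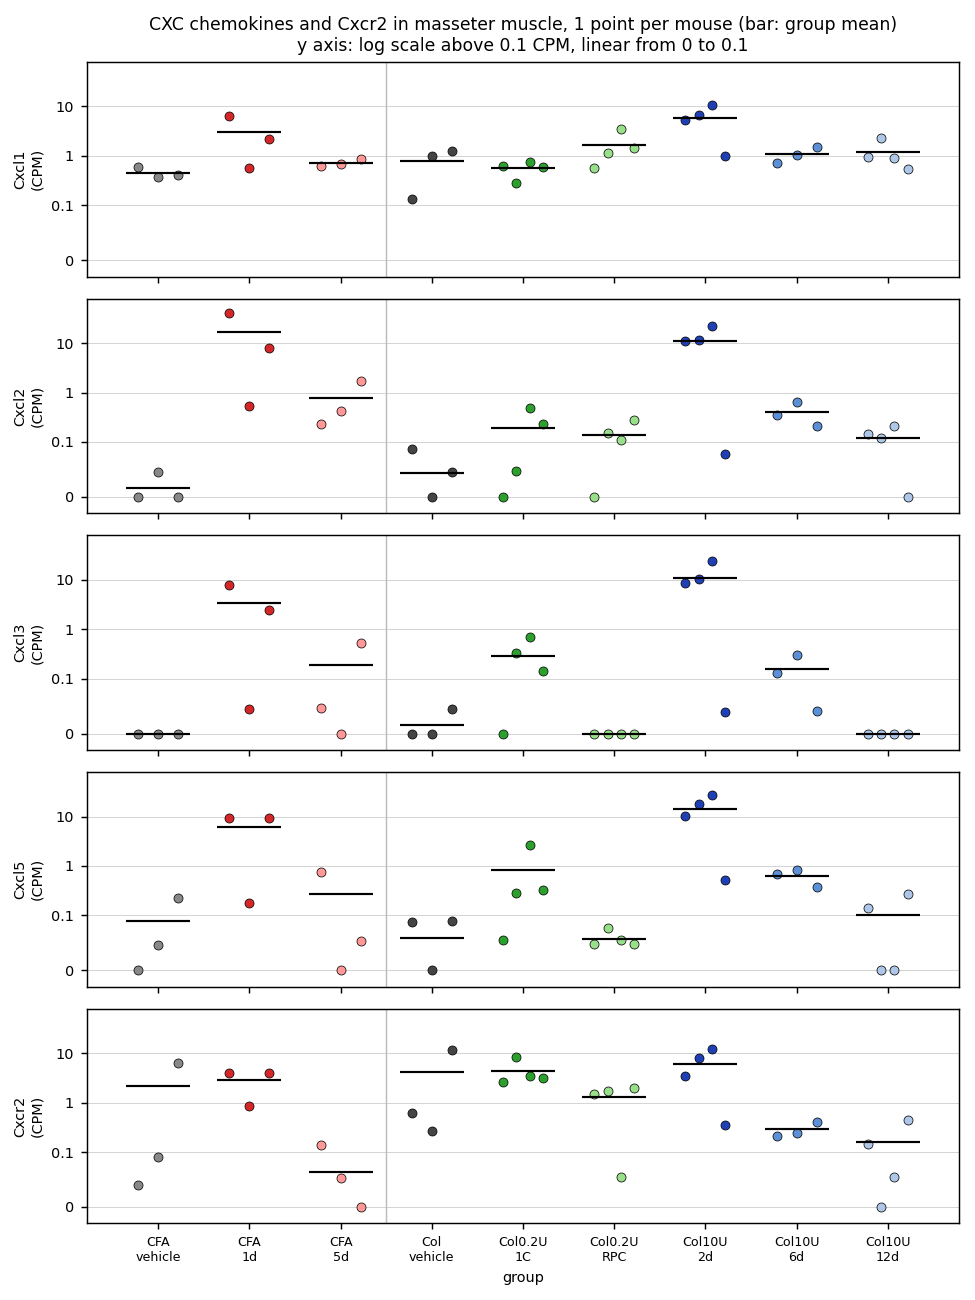
Level of each gene in CPM for every mouse (points, 1 per mouse) with the group mean (bar), by group. The axis is logarithmic above 0.1 CPM and linear below. All 4 ligands peak at 1d post-CFA and 2d post-Col (10U), where 1 mouse of each group stays low. Cxcr2 is also high in single vehicle mice and in group 1C, and lower in group RPC.

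At 1d post-CFA, 2 of the 3 mice had high levels of all ligands and the remaining mouse had almost none. Cxcl2, a ligand made chiefly by macrophages and neutrophils, was at 41.0, 0.534 and 7.95 CPM, or 1003, 12 and 178 reads. Cxcl5, a ligand made chiefly by epithelial and stromal cells, was at 9.24, 0.178 and 9.37 CPM, and Cxcl3, the close relative of Cxcl2, at 7.85, 0.0445 and 2.41 CPM. Cxcl1, a ligand that many cell types make, was at 6.30, 0.578 and 2.19 CPM. The second mouse was the low one for each of the 4, with 13, 12, 1 and 4 reads of Cxcl1, Cxcl2, Cxcl3 and Cxcl5. It was within the vehicle range for Cxcl1 and Cxcl5, and above it by 1 read for Cxcl3. Il1b, an inducer of these ligands picked here after its values were seen, was also low in that mouse, at 0.889 CPM against 52.2 and 18.6 CPM in the others. Its monocyte and macrophage markers summed to 86.1 CPM against 231 and 168 CPM, with 27.9 to 127 CPM in vehicle, and their part in the ligand values was not tested.

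Against vehicle at 1d post-CFA, the fitted log2 fold change was 9.74 (SE 1.96) for Cxcl2 and 2.69 (SE 0.82) for Cxcl1. Both had an adjusted p of 0.924 in the quasi-likelihood test of edgeR, with Benjamini-Hochberg adjustment over 13944 genes. A gene was called if this p was under 0.05, the change more than 2-fold and the mean RPKM of either group above 1, and 0 of the 3 members with enough reads to test were called. Over all genes the share called higher was 0%, with 4.22% at an unadjusted p under 0.05, and 2 of the 3 members, Cxcl1 and Cxcl2, were among these. DESeq2 called Cxcl2, with an adjusted p of 0.00253, and Cxcl5, with 0.00213, where it called 0.318% of its genes higher. Cxcl3 and Cxcl5 had too few libraries with 10 reads for the edgeR test. No mouse at 1d overlapped the vehicle mice for 2 of the 5 members, Cxcl2 and Cxcl3, and all lay above, as in 2.83% of tested genes. Cxcl3 was not among the tested genes, and its gap rests on 1 read in the second mouse. With the vehicle mice at the floor, Cxcl2 was at least 134-fold and Cxcl3 at least 27.9-fold higher on the means. Both bounds rest largely on the first mouse, and without it they were 34.5 and 9.97.

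By 5d post-CFA the levels of the ligands were closer to those in vehicle. Cxcl2 was at 0.234, 0.417 and 1.69 CPM, above each vehicle mouse, and at least 6.35-fold higher on the mean or 2.65-fold without the third mouse. Cxcl1, at 0.609, 0.678 and 0.846 CPM, was also above each vehicle mouse after TMM scaling, although without it 2 of the 3 mice (0.484 and 0.489 CPM) lay below the first vehicle mouse (0.516 CPM), and its log2 fold change was 0.67 (SE 0.41, adjusted p 0.55, edgeR, Benjamini-Hochberg). Such groups without overlap on the higher side were found in 14% of 14026 tested genes, and 0.877% were called higher with edgeR and 3.14% with DESeq2. Cxcl2 had too few reads to be among these 14026 genes. Cxcl3 was at 0.0468, 0 and 0.529 CPM and Cxcl5 at 0.749, 0 and 0.0529 CPM, which overlapped the vehicle mice. None (0) of the members was called with edgeR, which could test Cxcl1 alone. In edgeR 0 had an unadjusted p under 0.05, as 14% of genes had. DESeq2 called 0 too, and gave no adjusted p to Cxcl3 and Cxcr2. Cxcl2 had a log2 fold change of 5.75 in DESeq2 (adjusted p 0.0151) but a mean RPKM not over 1. Salivary gland markers summed to 48600 to 66000 CPM at 5d and 68.7 to 6580 CPM in vehicle, and their part in these values was not tested.

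Compared directly, all 4 ligands were lower at 5d than at 1d post-CFA on the fitted scale, with log2 fold changes of -2.02 (SE 0.76) for Cxcl1, -4.33 (SE 1.40) for Cxcl2, -4.09 (SE 1.55) for Cxcl3 and -4.42 (SE 1.47) for Cxcl5. Their groups overlapped, since the low mouse at 1d lay among the mice at 5d or, for Cxcl1, just below them, and their adjusted p-values were 0.197, 0.138, 0.199 and 0.149 (edgeR, Benjamini-Hochberg). The receptor had the largest fitted difference. Cxcr2 was at 3.97, 0.845 and 4.02 CPM at 1d and at 0.140, 0.0521 and 0 CPM at 5d, with no overlap. Its log2 fold change was -5.31 (SE 0.92, adjusted p 0.0172, edgeR), but its mean RPKM was not over 1 and it was not called. The mice at 5d were at the floor, which makes Cxcr2 at least 19.4-fold lower. Groups without overlap on the lower side made up 10.5% of genes and this held for 1 of the 5 members. EdgeR called 0.634% of genes lower but 0 of 5 members, of which 5 had an unadjusted p under 0.05, as 19.7% of genes had. DESeq2 called 1.97% of its genes lower, and Cxcl2 among the members (1). Without the second mouse at 1d, edgeR called all 4 ligands lower.

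After 0.2U Col no member was called. In group 1C, Cxcl5 was at 0.0556, 0.286, 2.65 and 0.326 CPM, Cxcl3 at 0, 0.334, 0.690 and 0.140 CPM and Cxcl2 at 0, 0.0477, 0.478 and 0.233 CPM. The third mouse was the highest for each of these, with 50 reads of Cxcl5, and the first was at 0 or 1 read. For Cxcl3 and Cxcl5, 3 of the 4 mice were above all vehicle mice. Squamous epithelium markers summed to 45.3 to 328 CPM in this group and 9.13 to 55.5 CPM in vehicle, and their part in these values was not tested. Cxcl1 was at 0.612, 0.286, 0.743 and 0.605 CPM and lay within the vehicle range in all 4 mice, with a log2 fold change of -0.48 (SE 0.70, adjusted p 0.781, edgeR, Benjamini-Hochberg). Cxcl2, Cxcl3 and Cxcl5 had too few reads for the test.

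In group RPC, Cxcl1 was the only ligand with more than 6 reads in any mouse. Cxcl3 was at 0 in all 4 mice, which allows up to 3 counts per library, Cxcl5 at 1 read in each and Cxcl2 at 0, 0.153, 0.111 and 0.283 CPM. Cxcl1 was at 0.574, 1.15, 3.44 and 1.41 CPM, and 2 of the 4 mice were above all vehicle mice. Its log2 fold change was 1.05 (SE 0.82, adjusted p 0.575, edgeR, Benjamini-Hochberg). EdgeR called 0% of genes higher in either 0.2U group and 0 of the 2 members it could test, none of which had an unadjusted p under 0.05 (0 in each group, against 12.6% of genes in group 1C and 13.5% in group RPC). DESeq2 called 1.74% and 0.891% of its genes higher and 0 members. It gave an adjusted p to 2 members in group 1C and to 0 in group RPC, where it therefore could call none. The salivary gland markers summed to 10300 to 131000 CPM in group RPC and 79.6 to 12100 CPM in group 1C, and their part in these values was not tested.

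At 2d post-Col (10U) the ligands reached their highest group levels of the Col experiment. Cxcl5 was at 10.5, 17.9, 27.2 and 0.510 CPM, and all 4 mice were above every vehicle mouse. Cxcl2 was at 10.9, 11.5, 22.7 and 0.0785 CPM, and Cxcl3 at 8.52, 10.4, 24.4 and 0.0392 CPM. Cxcl1 was at 5.34, 6.73, 10.7 and 0.981 CPM. Mice 1 to 3 were above all vehicle mice for each ligand, the third being the highest each time. The fourth had 2 reads of Cxcl2 and 1 of Cxcl3, as in vehicle mice, and 13 of Cxcl5.

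Of the 5 members, edgeR called 1 at 2d, Cxcl5 (log2 fold change 7.58, SE 1.49, adjusted p 0.0483), among 14373 genes of which 0.946% were called higher. An unadjusted p under 0.05 was found for the 4 ligands and for 33.3% of genes. Cxcl2, with 7.64 (SE 1.77), Cxcl3, with 8.87 (SE 2.08), and Cxcl1, with 2.86 (SE 0.93), had adjusted p-values of 0.0549, 0.056 and 0.0864. DESeq2 called all 4 ligands, with adjusted p-values of 1.27e-08 for Cxcl5, 0.000193 for Cxcl2, 0.000425 for Cxcl3 and 0.00649 for Cxcl1, where it called 6.24% of its genes higher. Without the fourth mouse edgeR also called all 4, with adjusted p-values of 0.000615 for Cxcl2, 0.000841 for Cxcl3 and 0.0141 for Cxcl1. Cxcl5 lost its call when any other mouse of the comparison was left out, with adjusted p-values from 0.0612 to 0.194. With vehicle at the floor, Cxcl5 was at least 90.5-fold, Cxcl2 at least 72.8-fold and Cxcl3 at least 69.9-fold higher on the means, and at least 62.2-fold, 48.3-fold and 40.8-fold without the third mouse. For 1 of the 5 members, Cxcl5, the groups did not overlap on the higher side, as in 11.7% of tested genes.

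In other lists the fourth mouse at 2d was partly outside and partly near the vehicle range. Its muscle markers summed to 53000 CPM and its monocyte and macrophage markers to 201 CPM, while the vehicle mice had 88800 to 138000 and 38.2 to 131 CPM, and the first 3 mice at 2d had 24900 to 33000 and 279 to 471 CPM. Its inducers summed to 295 CPM (vehicle 279 to 288) and its other chemokines to 74 CPM (vehicle 57.5 to 73). Its salivary gland markers, at 56300 CPM, were the highest of its group. The part of the salivary markers and of the lower muscle share in the CPM of other genes was not tested.

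**Figure D2:**
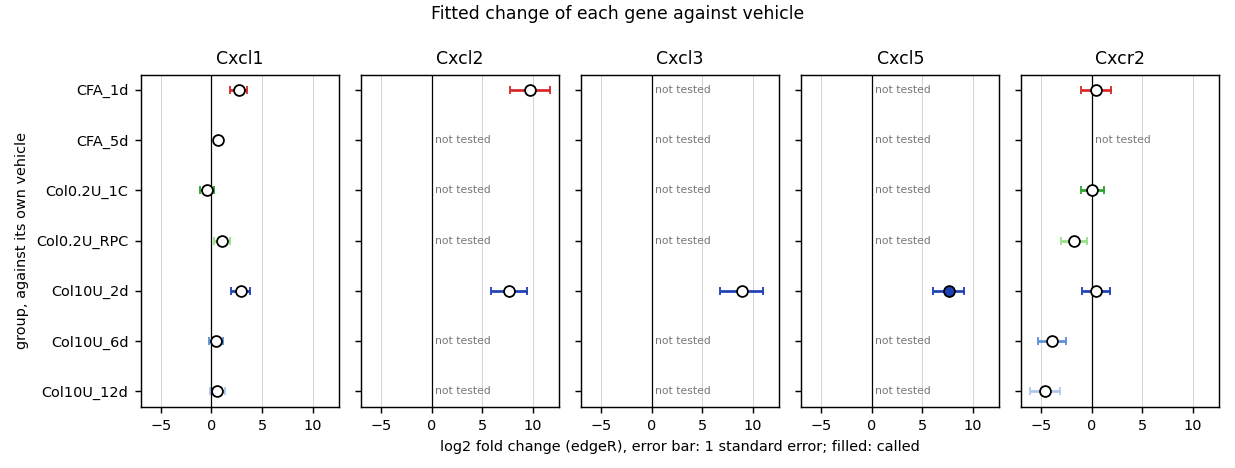
Fitted log2 fold change against vehicle (points, edgeR) for each gene and group. Error bars are 1 approximate standard error, derived from the test statistic. Filled points passed all thresholds and genes with too few reads are marked as not tested. The ligands have their largest values at 1d post-CFA and 2d post-Col (10U), only Cxcl5 at 2d is filled, and the Cxcr2 values of 0.38 and 0.43 in those groups become 5.43 and 3.65 without the third vehicle mouse.

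At 6d post-Col (10U), Cxcl5 was at 0.687, 0.821 and 0.373 CPM and Cxcl2 at 0.344, 0.650 and 0.207 CPM. Both were still above every vehicle mouse, at least 4.05-fold and 2.58-fold on the means, and Cxcl2 at least 1.78-fold without the second mouse. Such groups without overlap on the higher side made up 24.8% of 14281 genes at this day. Neither Cxcl2 nor Cxcl5 had enough reads to be among these genes. Cxcl3 was at 0.129, 0.308 and 0.0415 CPM and Cxcl1 at 0.730, 1.03 and 1.53 CPM, which overlapped vehicle. The log2 fold change of Cxcl1 was 0.45 (SE 0.71, adjusted p 0.647, edgeR, Benjamini-Hochberg). With edgeR, 8.23% of genes were called higher and 7.33% lower, and 0 of the 2 members tested. An unadjusted p under 0.05 was found for Cxcr2 (1 of 2) and for 43.4% of genes. Cxcl5 had a log2 fold change of 3.26 (SE 1.17, adjusted p 0.0215) in DESeq2 and 3.16 (SE 0.79, adjusted p 0.026) in edgeR without the filter on low counts, and Cxcl2 2.90 (SE 0.90, adjusted p 0.0495) in the latter, but their mean RPKM was not over 1. Monocyte and macrophage markers summed to 291 to 499 CPM at 6d, above the vehicle mice as at 2d, and their part in the ligand values was not tested. DESeq2 called 0 members, with 8.15% of its genes higher and 8.32% lower. It gave no adjusted p to Cxcr2 (log2 fold change -3.93, SE 1.13), which it therefore could not call.

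Between 2d and 6d all members were lower at 6d on the fitted scale, by log2 fold changes of -2.41 (SE 0.73) for Cxcl1, -4.76 (SE 1.38) for Cxcl2, -5.97 (SE 1.61) for Cxcl3, -4.44 (SE 1.14) for Cxcl5 and -4.35 (SE 1.11) for Cxcr2. The adjusted p-values of edgeR, 0.082, 0.0726, 0.0598, 0.0519 and 0.0511, stayed just over the threshold, so that 0 of 5 were called, where 2.36% of genes were called lower, and all 5 members and 26.6% of genes had an unadjusted p under 0.05. All 5 were called by DESeq2, which called 4.03% of its genes lower, and all 5 by edgeR without the fourth mouse at 2d. That mouse alone made the groups overlap for all 5 members, since the other 3 mice at 2d exceeded every mouse at 6d.

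At 12d every ligand overlapped the vehicle mice. Cxcl3 was at 0 in all 4 mice, Cxcl5 at 0.144, 0, 0 and 0.272 CPM, and Cxcl2 at 0.144, 0.122, 0.215 and 0 CPM. Cxcl1 was at 0.962, 2.26, 0.916 and 0.543 CPM, with a log2 fold change of 0.57 (SE 0.76, adjusted p 0.734, edgeR, Benjamini-Hochberg). At 12d Cxcl1 was the only ligand with 10 or more reads in every mouse. EdgeR called 0 of the 2 members tested, with 0.466% of genes higher and 0.339% lower. Cxcr2 (1 of 2) and 17.4% of genes had an unadjusted p under 0.05, and DESeq2 called 0 members, with 1.14% of its genes higher and 1.25% lower. It gave no adjusted p to Cxcl3 or to Cxcr2 (log2 fold change -4.7, SE 1.3), which it therefore could not call. Compared with 6d, Cxcl3 and Cxcl5 were lower with no overlap, 2 of 5 members where 18.7% of tested genes were lower in this way. Both had too few reads to be among the tested genes. For Cxcl3 the gap rests on 1 read in the third mouse at 6d, under the floor of 3 counts. Cxcl1, the one member tested, had a log2 fold change of 0.09 (SE 0.51, adjusted p 0.903, edgeR, Benjamini-Hochberg).

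Whether the early change differed between CFA and 10U Col was tested as the difference of both effects, each against its own vehicle, in 13 libraries. No member (0 of 5) was called with edgeR and 0 had an unadjusted p under 0.05, while 0.0406% of 14794 genes were called higher with CFA, 0.0541% lower and 6.83% had such a p. DESeq2 called 0 members. The differences in log2 fold change, CFA minus Col, were -0.18 (SE 1.33) for Cxcl1, 2.06 (SE 3.48) for Cxcl2, 0.34 (SE 0.99) for Cxcl3, -1.59 (SE 2.39) for Cxcl5 and -0.02 (SE 2.26) for Cxcr2, with adjusted p-values from 0.874 to 1. The SE of the Cxcl3 difference is below that of its Col effect alone (2.08), so it understates the error. With SEs of 1.33 to 3.48 for the other members, differences of several fold would not have been seen.

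Levels of different ligands can be compared only per length, as RPKM. In the vehicle groups Cxcl1 was first in each of the 6 mice, at 0.137 to 1.32 RPKM. At 1d post-CFA and 2d post-Col (10U) the order was another in all but the low mouse of each group. At 1d post-CFA, the first mouse had 22.4 RPKM of Cxcl2, against 7.78 of Cxcl3, 6.61 of Cxcl1 and 5.59 of Cxcl5. In the third mouse Cxcl5 was first at 5.66 RPKM, followed by Cxcl2 at 4.34. At 2d post-Col (10U), Cxcl3 or Cxcl5 was first in mice 1 to 3: Cxcl3 was at 8.44, 10.3 and 24.2 RPKM and Cxcl5 at 6.35, 10.8 and 16.4 RPKM, whereas Cxcl2 was at 5.95, 6.26 and 12.4 RPKM. In the low mouse of either group Cxcl1 was first, as in vehicle, at 0.607 and 1.03 RPKM. Cxcl1 was also first in every mouse at 6d and 12d post-Col (10U). At 5d post-CFA it was first in mice 1 and 2, and Cxcl2 in the third.

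**Figure D3:**
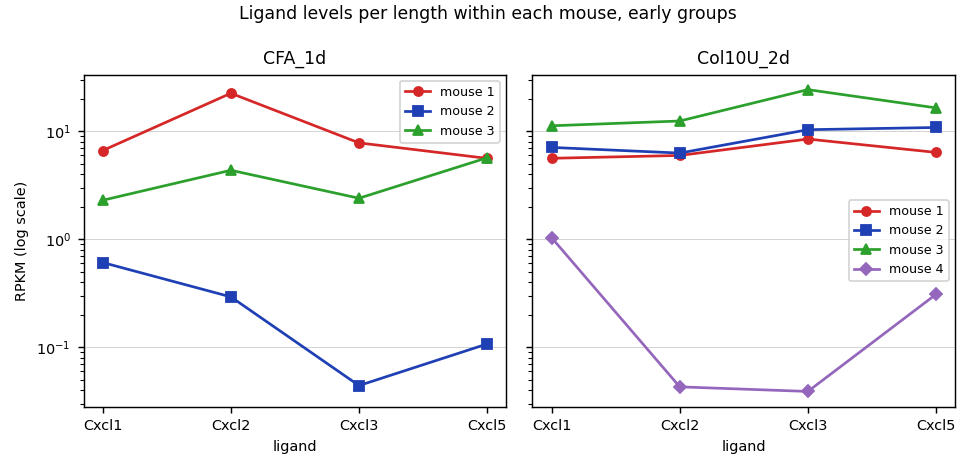
Level per length (RPKM, log scale) of the 4 ligands in each mouse at 1d post-CFA and 2d post-Col (10U), with 1 line per mouse. Cxcl2 stands out in the first mouse after CFA at 22.4 RPKM, Cxcl3 and Cxcl5 lead in mice 1 to 3 after Col, and Cxcl1 leads in the low mouse of each group.

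Over all 31 libraries the ligands varied together, as a description on log2 CPM. Pearson's r was 0.93 for Cxcl2 with Cxcl3, 0.927 for Cxcl3 with Cxcl5 and 0.854 for Cxcl2 with Cxcl5, and 0.673 to 0.774 for Cxcl1 with the other ligands. For Cxcr2 with the ligands r was 0.287 to 0.581. Spearman's rho gave another order, with 0.617 for Cxcr2 with Cxcl5 and 0.462 with Cxcl3, against 0.331 and 0.436 for Cxcl1 with the same ligands and 0.572 to 0.789 among Cxcl2, Cxcl3 and Cxcl5. These points share libraries and depth.

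For Cxcr2 the comparison with vehicle rested on the third vehicle mouse of each experiment. At 2d post-Col (10U) it was at 3.40, 8.15, 12.4 and 0.353 CPM, which lay within the vehicle range in all mice but the third, and its log2 fold change was 0.43 (SE 1.34, adjusted p 0.847). At 1d post-CFA its log2 fold change was 0.38 (SE 1.48, adjusted p 0.99, both edgeR, Benjamini-Hochberg). Without the third vehicle mouse these values were 3.65 (SE 1.39, adjusted p 0.116) at 2d and 5.43 (SE 1, adjusted p 0.349) at 1d post-CFA, so neither a change nor its absence can be read from them. It was at 2.67, 8.44, 3.50 and 3.21 CPM in group 1C and at 1.53, 1.76, 0.0555 and 1.98 CPM in group RPC, with log2 fold changes of 0.06 (SE 1.11, adjusted p 0.987) and -1.72 (SE 1.29, adjusted p 0.562) in edgeR. Without the third vehicle mouse they were 3.31 (SE 0.71, adjusted p 0.174) in group 1C and 1.60 (SE 1.10, adjusted p 0.411) in group RPC, where the sign turned. At 6d it was at 0.215, 0.240 and 0.415 CPM and at 12d at 0.144, 0, 0.0539 and 0.453 CPM, with log2 fold changes of -3.92 (SE 1.37, adjusted p 0.0667) and -4.61 (SE 1.44, adjusted p 0.182). At 6d the second vehicle mouse, at 0.266 CPM, lay among the treated mice and only the first and the third were above. Without that vehicle mouse edgeR called Cxcr2 lower at 6d, with -4.48 and an adjusted p of 0.0301. At 5d post-CFA it was at the floor and at least 14.3-fold lower than the vehicle mean, which rests on the third vehicle mouse alone, since the other 2 were at the floor too.

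Cxcr2 varied with the markers of neutrophils. The 5 of 6 listed neutrophil markers that were matched (S100a8, S100a9, Retnlg, Csf3r and Mmp8) summed to 2.22, 3.33 and 476 CPM in the CFA vehicle group and 204, 6.39 and 725 CPM in the Col vehicle group. They summed to 51.3 to 344 CPM at 1d post-CFA, 2.66 to 5.81 at 5d, 153 to 834 in group 1C, 3.33 to 238 in group RPC, 61.7 to 230 at 2d post-Col (10U), 12.6 to 16.8 at 6d and 8.51 to 91.1 at 12d. Over 31 libraries the log2 values of Cxcr2 and this sum had Pearson's r of 0.896 and Spearman's rho of 0.874. Without the 2 libraries farthest from the median sum r was 0.886. These values describe libraries that share their groups. Per 100 CPM of this sum, Cxcr2 was at 5.36 to 5.51 CPM in mice 1 to 3 at 2d post-Col (10U). The fourth mouse, with 9 reads, was at 0.5 CPM. In the other 15 libraries with 10 or more Cxcr2 reads it was at 0.299 to 3.13 CPM (median 1.17). This difference was not tested, and it depends on the marker. S100a9 was at 20.9, 75.2 and 104 CPM in mice 1 to 3, against 411 CPM in the third Col vehicle mouse. Csf3r was at 26.6, 25.6 and 41.2 CPM against 19 CPM. Cxcr2 was at 11.9 CPM in that vehicle mouse, so per CPM of Csf3r alone mice 1 to 3 did not lie above it. The 8 markers of immature marrow neutrophils, among them Ltf, which salivary gland also makes, summed to 2.06, 4.15 and 566 CPM in the CFA vehicle group, 185, 8.98 and 928 CPM in the Col vehicle group and 255 to 709 CPM in group 1C. Bone markers summed to 4.84, 8.21 and 114 CPM, 81.8, 8.18 and 141 CPM and 79.8 to 265 CPM in these groups. The part of marrow or bone tissue in the Cxcr2 values was not tested.

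**Figure D4:**
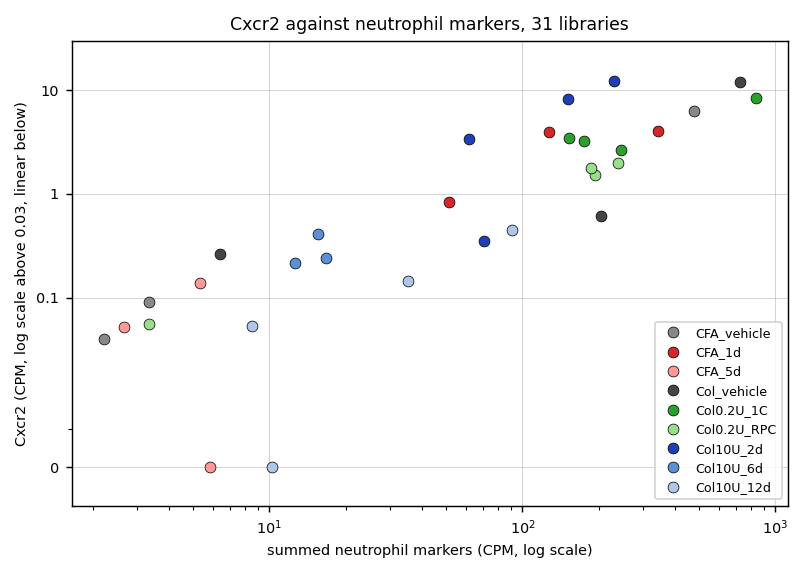
Cxcr2 (CPM, log scale above 0.03) against the sum of 5 neutrophil markers (CPM, log scale), 1 point per library, coloured by group. Cxcr2 rises with the marker sum, with r of 0.896 on the log2 scale. Per CPM of this sum, mice 1 to 3 at 2d post-Col (10U) lie above the other libraries with 10 or more Cxcr2 reads. Per CPM of Csf3r alone they do not lie above the third Col vehicle mouse.

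Genes around the axis were taken from fixed lists and are given by counts and medians. Of 18 inducers and NF-kB feedback genes, 14 were tested at 1d post-CFA and all 14 had a log2 fold change above 0, with a median of 1.02 against -0.01 over all genes, but 0 were called by edgeR. DESeq2 called 1, Il6 (adjusted p 0.0396), which had too few reads for edgeR. At 2d post-Col (10U) 15 of 15 were above 0, with a median of 1.24 against 0.02, with 0 called by edgeR and 7 by DESeq2, among them Il1b (3.10, SE 1.08), Il6 (5.87, SE 1.89) and Tlr4 (1.85, SE 0.41). Of the other chemokines listed, which recruit mainly monocytes and lymphocytes, all 7 tested at 1d post-CFA were above 0, with a median of 2.79, and 8 of 9 at 2d post-Col, with a median of 2.72. Ccl2 (5.94, SE 0.89, adjusted p 0.0337) and Ccl7 (6.54, SE 1.09, adjusted p 0.0408), ligands that draw monocytes, passed with edgeR at 2d (Benjamini-Hochberg). Over all genes, edgeR called 0% higher at 1d and 0.946% at 2d, and DESeq2 0.318% and 6.24%.

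At 6d post-Col (10U), 6 of the 8 other chemokines tested were called higher, with Ccl3 at 5.69 (SE 0.79), Ccl7 at 3.81 (SE 0.59), Ccl2 at 3.16 (SE 0.74) and Cxcl16 at 2.45 (SE 0.25), adjusted p-values from 0.00219 to 0.0222 (edgeR, Benjamini-Hochberg). From the inducers, Tlr2 (1.97, SE 0.43) and Nfkbiz (1.31, SE 0.35) were called. Over all genes, edgeR called 8.23% higher and 7.33% lower at 6d. Of the neutrophil genes, 1 of 9 tested was above 0, the median was -2.55, and S100a8, S100a9 and Lcn2 were called lower, at -4.78 (SE 1.36), -6.86 (SE 1.49) and -6.38 (SE 1.39). Their vehicle values spread over 1.80 to 240 CPM for S100a8 and 3.99 to 411 CPM for S100a9, so the reference itself was wide. Markers of other tissues had low medians too, at -6.75 for immature marrow neutrophils (5 of 5 tested called lower), -3.81 for erythroid cells, -2.47 for bone, -12.73 for salivary gland and -2.08 for platelets, and their part in these values was not tested. Among the other genes of the axis, Ppbp, a platelet ligand of the same receptor, was called lower (-5.55, SE 1.48) and Cxcr4, a receptor for a different ligand, higher (1.68, SE 0.37). From 2d to 6d, 7 of 12 neutrophil genes were called lower and 0 higher by edgeR, which called 2.36% of genes lower there. At 12d against 6d it called 2 higher, S100a9 (3.68, SE 0.94) and Mmp9 (2.24, SE 0.57), with 4.72% of genes higher. DESeq2 called 3 higher and 1 lower, with 5.34% and 6.26% of its genes.

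At 5d post-CFA Ccl3 was called (4.54, SE 0.73, adjusted p 0.0447, edgeR, Benjamini-Hochberg), at 0.834 to 1.43 CPM against at most 0.0736 CPM in vehicle, while DESeq2 called 5 of the 9 other chemokines higher (Ccl3, Ccl4, Ccl7, Cxcl10 and Cxcl16). Over all genes, edgeR called 0.877% higher at 5d and DESeq2 3.14%. From 1d to 5d post-CFA, 4 of 12 neutrophil genes were called lower, where edgeR called 0.634% of genes lower. Among them were S100a8 and S100a9, at -7.12 (SE 0.93) and -7.14 (SE 0.85), and Tlr4 fell by 2.30 (SE 0.36) on the log2 scale. Neither 0.2U group nor 12d post-Col (10U) had a call in any of the 4 lists with edgeR (0 in each). DESeq2 called Ccl2 and Ccl7 higher in group 1C, with 1.74% of its genes, and 2 neutrophil genes lower at 12d, with 1.25%. The 9 other genes of the axis, which include atypical receptors and Cxcl12, had medians of 0.06 at 1d post-CFA and 0.14 at 2d post-Col (10U) with 0 calls by edgeR in each, and DESeq2 called 0 and 1. The 12 neutrophil genes had medians of 0.56 and -0.65 in the same comparisons, again with 0 calls by edgeR, and DESeq2 called 0 and 1.

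The genes whose pattern over the 31 libraries was most like each member were looked for among 15526 genes by Pearson's r of log2 CPM. For Cxcl3 they were Mt1 (0.948), Mt2 (0.947), both metallothioneins that bind zinc, and Sbno2 (0.947), and for Cxcl5 Mt2 (0.935), Mt1 (0.931) and Pdpn (0.926), which encodes podoplanin. For Cxcl2 they were Sbno2 (0.922), Card14 (0.919) and Ch25h (0.911), which encodes cholesterol 25-hydroxylase. Cxcl1 was nearest to Eif5 (0.847), Gnl3 (0.847) and Gna13 (0.843). After centring each group on its mean, r was 0.835 to 0.931 for the neighbours of Cxcl2, Cxcl3 and Cxcl5 and 0.689 to 0.746 for those of Cxcl1. The likeness was thus also present between mice of the same group, and the part of the low mice in it was not tested. By Spearman's rho the same neighbours ranked 2 to 59 for Cxcl2, 26 to 146.5 for Cxcl3, 75 to 303.5 for Cxcl5 and 35 to 342 for Cxcl1. Cxcr2 was nearest to Nlrp12 (0.921), Mmp8 (0.92), a neutrophil collagenase, and Trem1 (0.898), a receptor on neutrophils and monocytes.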

How the data were processed

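Left MM was collected from mice injected with CFA (mixed 1:1 with PBS), type 2 collagenase or vehicle, and stranded poly(A) libraries were sequenced as single 50-base reads. The authors aligned the reads to mm9 with TopHat2 and deposited raw read counts per gene symbol, 1 mouse per table. HTSeq and bcl2fastq are named in the submitters' processing notes, and the versions, annotation and strand setting are not given in the sources used here. Lines for reads outside genes (6.69 to 22.5% of uniquely placed reads) or shared between genes (0.125 to 0.703%) were left out of library sizes and tests. All 465 pairs of libraries differed (largest r 0.9956).

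Counts were tested with edgeR 4.0.16 (quasi-likelihood, TMM, group as the only factor, the libraries of the comparison only) in R 4.3.3 with limma 3.58.1, keeping genes that reached 10 counts in 3 or more libraries. Adjustment (Benjamini-Hochberg) was over all genes so kept. Because mice were separate animals, p-values measure the spread between mice. RPKM used exon lengths of GENCODE vM1 (mm9), matched by symbol for 21627 of 22609 genes. In simulated counts 200 genes had a log2 change of 2. The test recovered 130 for the design of 1d post-CFA against vehicle (10 of 140 calls wrong, 13699 genes). For 2d post-Col (10U) it recovered 125 (14 of 139 wrong, 13906 genes). The simulation drew each gene on its own and used no RPKM threshold. It held no mouse that was low in many genes at once, so these shares do not carry over to the groups here. Alternatives were DESeq2 1.42.0, its size factors in edgeR, no filter on low counts, no RPKM threshold, 1 fit of all 31 libraries, both vehicle groups pooled, a replicate block, and leaving out each mouse. In 1d post-CFA against vehicle, same-numbered mice deviated together over genes (r 0.165 to 0.592, mean 0.338, 3 pairs). They were different animals. The paired fit changed no call of a member there, but it called 1 gene higher where the main fit called 0. The log2 fold change of Cxcr2 moved from 0.38 to 2.2 (SE 1.34).

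Folds against groups at 0 used a floor of 3 counts per library and are lower bounds that cover counting error only. Promoters were searched in Python 3.11.15. The members and all lists were chosen with earlier results of these data known, and the study names some of the ligands as changed in these samples, so no count over them is independent evidence. All members are named in every comparison. Of the lists, genes that passed a test are named, and for pattern the 3 genes with the highest r per member. Sums over the marker lists are given as ranges.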

Additional observations from a re-analysis of the deposited data

Results flagged for a closer look

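Of 36 tests of a single mouse far from its group (each member in each group of 4 mice, on the CPM and on the log2 scale, Dixon's 95% limit), 4 passed, where chance passes about 1 in 20. Cxcl2 in the fourth mouse at 2d post-Col (10U) lay far below the other 3 on the log2 scale, with a gap of 0.851 of the group's range. Cxcl5 in the third mouse of group 1C lay far above its group in CPM, with a gap of 0.896, and Cxcr2 in the second mouse of that group with a gap of 0.856. Cxcr2 in the third mouse of group RPC lay far below on the log2 scale, with a gap of 0.907, and that mouse also had the lowest sum of neutrophil markers of its group, 3.33 CPM against 187 to 238 CPM.

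Cxcl3 lay on opposite sides of its vehicle mean of 0.0149 CPM in different groups, and the difference was not tested. Its mean was 10.8 CPM at 2d and 0.16 CPM at 6d post-Col (10U), where every mouse was above the vehicle mean, and 0 CPM at 12d, where every mouse was at 0. The vehicle mean rests on 1 read in 1 mouse, so this difference in sign lies below the floor of 3 counts.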

How the results depend on the processing

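DESeq2 called 2 members at 1d post-CFA (edgeR 0). At 2d post-Col (10U), where edgeR called 1, DESeq2, the fit of all 31 libraries and the pooled vehicles called 4 each, and leaving out single mice gave 0 to 4, with 4 only without the fourth mouse. At 6d the fit of all libraries called 1 (edgeR 0), and leaving out single mice gave 0 to 1. From 1d to 5d post-CFA (edgeR 0), DESeq2 and dropping the RPKM threshold called 1 each and leaving out mice 0 to 4. From 2d to 6d (edgeR 0), DESeq2 called 5, the fit of all libraries 4 and leaving out mice 0 to 5. Apart from the replicates left out, the cause was not tested. Values with a standard error near or over their size changed sign. With pooled vehicles Cxcr2 at 1d post-CFA was -0.18, and in DESeq2 the CFA minus Col difference was -0.34 for Cxcl3 and 0 for Cxcr2. Leaving out single mice gave -0.15 to 5.43 for Cxcr2 at 1d post-CFA, -1 to 0.07 for Cxcl1 and -0.49 to 3.31 for Cxcr2 in group 1C, -2.27 to 1.6 for Cxcr2 in group RPC, -0.21 to 3.65 for Cxcr2 at 2d, -0.07 to 1.04 for Cxcl1 at 6d and -0.41 to 0.4 for Cxcl1 at 12d against 6d. It gave CFA minus Col differences of -1.2 to 0.35 for Cxcl1, -1.64 to 1.18 for Cxcl3, -2.15 to 0.26 for Cxcl5 and -3.25 to 4.93 for Cxcr2. The highest Cxcr2 values came without the third vehicle mouse.

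With the replicate block, which cannot use mice without a partner and so dropped the fourth mouse at 2d, edgeR called 4 members at 2d, 1 from 1d to 5d post-CFA and 5 from 2d to 6d, and the CFA minus Col difference was -0.19 for Cxcl3 and 0.08 for Cxcr2. Outside 1d post-CFA, same-numbered mice shared only a number (mean r -0.119 to 0.174). The block changed no other count of called members. Over all settings, 344 values of single members kept direction and call, 44 gained a call, 6 lost one and 32 changed sign. Depth limits Cxcl2, Cxcl3 and Cxcl5 in vehicle, where 3 counts are worth 0.103 to 0.202 CPM.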

Other observations

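The ratio of Cxcl2 to Cxcl3 reads within a library was looked at after the values were seen. It was 5.22, 12 and 3.3 in the mice at 1d post-CFA and 1.28, 1.1, 0.932 and 2 at 2d post-Col (10U). An exact permutation test between these groups gave p 0.0571, the smallest that its 35 splits allow, so it could not decide on a difference. The ratio of 12 rests on 12 reads against 1 and that of 2 on 2 reads against 1. At 5d post-CFA it was 5 and 3.2 in the 2 mice with Cxcl3 reads, at 6d post-Col (10U) 2.67, 2.11 and 5, and in group 1C 0.143, 0.692 and 1.67 in the 3 mice with Cxcl3 reads, all on 13 or fewer reads of Cxcl3. The count tables of the CFA and Col experiments differ in the form of their closing lines, and treatment and experiment cannot be told apart.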
